A study of Homo sapiens with 8 samples.

Results

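Transcript levels of 27 genes of cholesterol synthesis and sterol control were described in DU145 and PC3, 2 established human prostate cancer lines, the first from a metastasis in the brain and the second from one in bone. The genes were chosen by name, with earlier results of these data known, and all 27 were found in the deposited table. They also passed the filter on low values and are among the 25982 genes tested. They are 19 enzymes that lead from acetyl-CoA to cholesterol or to its isoprenoid side products, 5 genes of the sterol sensor and 3 genes of sterol transport. The list does not hold every gene of the pathway.

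The 8 RNA libraries form 4 groups of 2. DU145 TRIB1 and PC3 TRIB1 cells had received a lentivirus that carries TRIB1, and DU145 control and PC3 control cells an empty lentivirus. The labels give no promoter, no clone and no time after infection, and do not say whether the libraries of a group came from separate cultures. The p-values below therefore rest on the spread within these pairs of libraries, part of which may be technical. TRIB1 encodes a pseudokinase that guides the ubiquitin ligase COP1 to its substrates. It stood at 69.4 and 62.3 TPM in DU145 TRIB1 libraries, against 10.1 and 7.94 TPM in DU145 control libraries, and at 241 and 245 TPM in PC3 TRIB1 libraries, against 45.1 and 50.8 TPM in PC3 control libraries.

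TPM, a transcript's share of the library, scales each library to the same total and corrects for gene length, so the depth of the libraries is unknown. Between 30398 and 31694 genes were above 0 per library. In the second DU145 TRIB1 library the short RNAs RN7SL1 and RN7SL2 made up 3.17% of the library, and 1.27% to 2.24% of the remaining 7. The epithelial genes KRT8, KRT18, EPCAM and CDH1 were present in all 8 libraries. Their summed level was 1585 and 1546 TPM in PC3 TRIB1 libraries, against 541 and 517 TPM in PC3 control libraries, so it moved with the sterol genes described below, and its part in those results was not tested. The leukocyte gene PTPRC stayed between 0.151 and 0.467 TPM and the fibroblast gene COL1A2 did not pass 0.268 TPM. COL1A1, another fibroblast gene, stood at 40.4 and 36 TPM in PC3 TRIB1 libraries, against 57.4 and 69 TPM in PC3 control libraries. PDGFRB, a gene of stromal cells, had 0.0506 and 1.3 TPM in PC3 TRIB1 libraries, against 0.0552 and 0.112 TPM in PC3 control libraries, and stood at 2.33 to 2.97 TPM in DU145. KLK3, which encodes prostate-specific antigen, was listed at 0 in 7 of 8 libraries. In bulk RNA, fewer cells with a transcript and less transcript per cell cannot be told apart.

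Cholesterol is built in the endoplasmic reticulum from acetyl-CoA. Mevalonate is made first and turned into isoprenoid units, which are joined to farnesyl diphosphate. From there the path runs through squalene and lanosterol to cholesterol, while side branches feed protein prenylation, dolichol and ubiquinone. When sterol in the membrane is low, SCAP carries the SREBP precursors to the Golgi, where proteases free a transcription factor that switches on most genes of the path. When sterol is high, INSIG proteins hold SCAP back. Prostate cancer cells are known to make and store much cholesterol, which is also the source of steroid hormones.

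The promoters of the 4 genes with the largest rise in PC3 are shown first. SREBF2 is added because its window holds the one match to a sterol response element. The 4 were picked after their values were seen. Each window has 300 bases around a start of the gene in RefSeq (GRCh38.p14), most of them upstream, 5′ to 3′ along the gene's strand, and the first listed window is given where a gene has several. Capitals mark CCAAT, the box bound by NF-Y, a partner of SREBP, on either strand (ATTGG on the other), and in SREBF2 also the match to TCACNCCAC.
STARD4 (chr5:111512486-111512785, minus strand): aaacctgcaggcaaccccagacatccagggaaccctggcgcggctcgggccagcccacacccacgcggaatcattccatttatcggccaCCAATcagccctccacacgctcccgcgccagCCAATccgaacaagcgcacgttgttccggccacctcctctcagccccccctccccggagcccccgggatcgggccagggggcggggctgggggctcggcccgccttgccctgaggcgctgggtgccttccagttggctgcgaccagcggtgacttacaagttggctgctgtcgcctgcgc
HMGCS1 (chr5:43313363-43313662, minus strand): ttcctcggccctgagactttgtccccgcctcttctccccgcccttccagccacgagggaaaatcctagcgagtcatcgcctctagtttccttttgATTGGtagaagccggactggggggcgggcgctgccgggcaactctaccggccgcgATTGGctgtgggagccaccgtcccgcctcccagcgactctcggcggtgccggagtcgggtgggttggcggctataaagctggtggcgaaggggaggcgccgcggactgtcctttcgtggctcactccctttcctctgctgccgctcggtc
SC5D (chr11:121292602-121292901, plus strand): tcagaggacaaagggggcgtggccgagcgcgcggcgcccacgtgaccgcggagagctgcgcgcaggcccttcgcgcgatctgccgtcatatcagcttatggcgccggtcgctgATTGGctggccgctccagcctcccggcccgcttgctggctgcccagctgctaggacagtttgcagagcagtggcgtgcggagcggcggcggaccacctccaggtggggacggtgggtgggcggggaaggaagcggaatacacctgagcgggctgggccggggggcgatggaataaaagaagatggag
MSMO1 (chr4:165327419-165327718, plus strand): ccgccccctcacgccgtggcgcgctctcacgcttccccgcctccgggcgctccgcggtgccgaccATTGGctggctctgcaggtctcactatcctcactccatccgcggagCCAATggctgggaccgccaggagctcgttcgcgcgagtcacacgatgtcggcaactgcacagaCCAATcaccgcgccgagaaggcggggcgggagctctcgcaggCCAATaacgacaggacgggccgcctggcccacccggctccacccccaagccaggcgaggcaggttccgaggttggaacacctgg
SREBF2 (chr22:41832855-41833154, plus strand): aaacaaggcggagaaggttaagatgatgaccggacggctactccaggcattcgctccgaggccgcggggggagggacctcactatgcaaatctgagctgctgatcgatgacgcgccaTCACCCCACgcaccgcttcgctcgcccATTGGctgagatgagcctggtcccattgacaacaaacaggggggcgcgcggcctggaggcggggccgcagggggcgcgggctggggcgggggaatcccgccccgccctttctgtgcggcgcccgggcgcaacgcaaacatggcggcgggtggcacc
Of the 27 members 24 had at least 1 window in this table. A CCAAT on either strand was present in a window of 17 of these 24 (70.8%), against 39.7% of all 27305 genes with a window, and in 5 of the 6 rising genes with a window. TCACNCCAC, a spelling of the sterol response element, was present on either strand in 1 of the 24, SREBF2, against 1.39% of all genes. The shorter CACNCCAC, which lies within it, was present in 5 of the 24 (20.8%), against 7.05%. Of the 6 rising genes, 0 held TCACNCCAC and 1 held CACNCCAC. These 6 are part of the 24 and were picked by their rise in PC3. Such matches describe letters in these windows and are not evidence of binding.

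**Figure D1:**
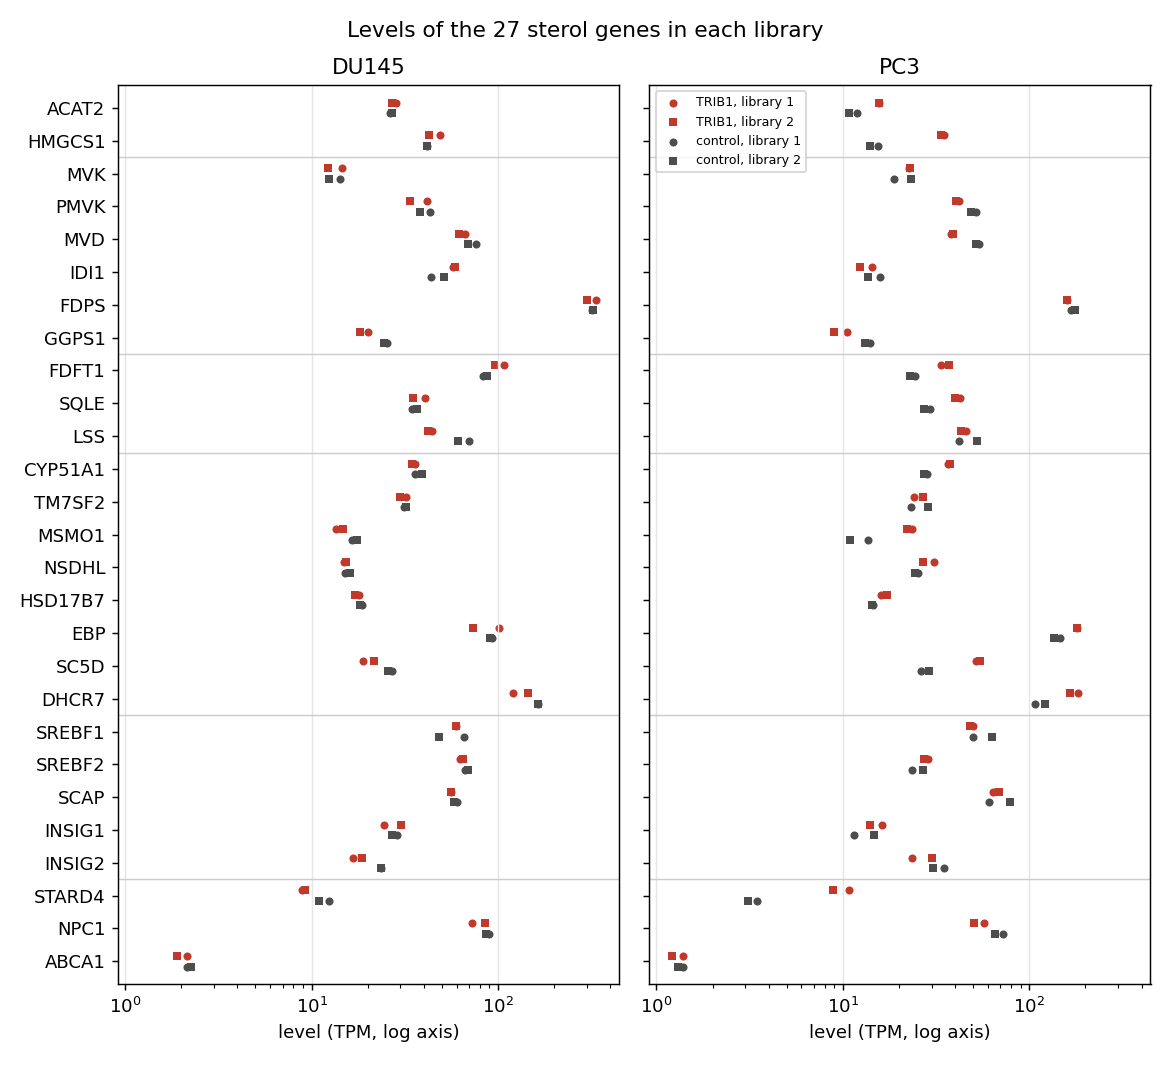
Level of each of the 27 genes in every library (TPM, log axis), with DU145 on the left and PC3 on the right; red marks TRIB1 and grey control libraries, circles the first and squares the second library, and lines separate the roles. FDPS is the highest member in DU145 (302 to 337 TPM), ABCA1 the lowest in both lines, and the PC3 TRIB1 points of HMGCS1, SC5D and STARD4 lie to the right of the PC3 control points.

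In PC3, TRIB1 went with more transcript of 9 of the 27 genes and less of 2, and in DU145 none of the 27 passed the test. The 9 were ACAT2 and HMGCS1 at the entry of the pathway, FDFT1 and SQLE, which make and oxidise squalene, CYP51A1, MSMO1, SC5D and DHCR7 between lanosterol and cholesterol, and the sterol carrier gene STARD4. The 2 that fell, MVD and GGPS1, lie between mevalonate and the isoprenoids. The test was limma on log2(TPM + 1) over all 8 libraries, and rose and fell stand for an adjusted p below 0.05. Over all 25982 genes tested 7.67% rose and 9.33% fell in PC3. HMGCS1 and STARD4 rose by a log2 of more than 1 and 0 members fell by as much, against 2.52% and 2.67% of all genes tested. Both PC3 TRIB1 libraries were above both PC3 control libraries for 13 members and below them for 6, against 24.5% and 29.8% of all genes tested. The median log2 change of the 27 members was 0.15, and that of all genes tested -0.01. Without the first PC3 TRIB1 library the median log2 change of the members was 0.10, and that of all genes tested -0.02. Without the second PC3 TRIB1 library these medians were 0.15 and 0. Fewer members passed in either of these 2 fits, and fewer of all genes tested passed as well.

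At the entry of the pathway both members rose in PC3, where 7.67% of all genes tested rose. HMGCS1 (ENSG00000112972, chromosome 5, 43289395 to 43313512 in GENCODE 29 on GRCh38), the cytosolic HMG-CoA synthase that makes the precursor of mevalonate, stood at 34.9 and 33.6 TPM in PC3 TRIB1 libraries, against 15.4 and 13.9 TPM in PC3 control libraries. The groups did not overlap. The mean ratio was 2.34 and the log2 change 1.17 (SE 0.09, limma adjusted p = 0.00192), and the call held in all 16 alternatives run. ACAT2, the cytosolic thiolase that joins acetyl-CoA units, stood at 15.7 and 15.6 TPM in PC3 TRIB1 libraries, against 11.9 and 10.8 TPM in PC3 control libraries. Its log2 change was 0.43 (SE 0.08, limma adjusted p = 0.0199), and the call ended without either PC3 TRIB1 library and with the PC3 libraries fitted alone (adjusted p up to 0.0863 over the alternatives). ACAT2 overlaps SOD2 by 2202 bases and TCP1 by 558 bases, both on the opposite strand. TCP1 stood at 206 and 202 TPM in PC3 TRIB1 libraries, against 177 and 179 TPM in PC3 control libraries, and the counting is not stated to use strand.

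Between mevalonate and the isoprenoids the values ran the other way in PC3. Of 6 members 0 rose and 2 fell, against 7.67% and 9.33% of all genes tested. In 5 of the 6 the log2 change was below 0, and the median of all genes tested was -0.01. MVD, the decarboxylase that yields isopentenyl diphosphate, stood at 38.1 and 39.1 TPM in PC3 TRIB1 libraries, against 53.8 and 52 TPM in PC3 control libraries (log2 change -0.45, SE 0.07, limma adjusted p = 0.0134). GGPS1, which makes geranylgeranyl diphosphate for protein prenylation, stood at 10.5 and 8.93 TPM in PC3 TRIB1 libraries, against 14 and 13.2 TPM in PC3 control libraries (log2 change -0.45, SE 0.11, limma adjusted p = 0.037). The groups did not overlap for either gene. MVD lost its call without either PC3 TRIB1 library, and GGPS1 lost it in 13 of 16 alternatives, among them each of the 8 that leave out 1 library (adjusted p up to 0.121). In the annotation used here GGPS1 overlaps TBCE on the same strand by 15963 bases, and the part of shared reads was not tested.

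The other 4 members of this stretch did not pass in PC3. FDPS, the farnesyl diphosphate synthase from which the sterol and prenyl branches part, was the most abundant member in DU145. In PC3 it stood at 160 TPM in both TRIB1 libraries, against 167 and 175 TPM in PC3 control libraries (log2 change -0.10, 95% interval -0.25 to 0.06). PMVK, a kinase of the mevalonate steps, had 42.2 and 40.6 TPM in PC3 TRIB1 libraries, against 52 and 48.9 TPM in PC3 control libraries (adjusted p = 0.169 by limma). The kinase gene MVK stood at 22.8 TPM in both PC3 TRIB1 libraries, against 18.9 and 23.2 TPM in PC3 control libraries. IDI1, which interconverts the isoprenoid units, had 14.3 and 12.3 TPM in PC3 TRIB1 libraries, against 15.7 and 13.6 TPM in PC3 control libraries. The PC3 groups overlapped for MVK and IDI1 and not for PMVK and FDPS. The summed level of these 6 genes was 287 and 284 TPM in PC3 TRIB1 libraries, against 321 and 326 TPM in PC3 control libraries, of which FDPS is the larger part.

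Of the 3 genes from farnesyl diphosphate to lanosterol, 2 rose in PC3, against 7.67% of all genes tested. FDFT1, squalene synthase and the first enzyme committed to sterols, stood at 33.7 and 36.9 TPM in PC3 TRIB1 libraries, against 24.5 and 23.1 TPM in PC3 control libraries (log2 change 0.55, SE 0.08, limma adjusted p = 0.0102). SQLE, the squalene epoxidase that limits the rate of the later path, stood at 42.3 and 40.2 TPM in PC3 TRIB1 libraries, against 29.5 and 27.2 TPM in PC3 control libraries (log2 change 0.53, SE 0.09, limma adjusted p = 0.0178). The groups did not overlap for either gene. The FDFT1 call ended without the second PC3 TRIB1 library, and the SQLE call without either PC3 TRIB1 library or the second PC3 control library (adjusted p up to 0.0594 and 0.0935 over all alternatives). LSS, which closes the rings to give lanosterol, overlapped between the groups, with 45.5 and 43.3 TPM in PC3 TRIB1 libraries and 42.2 and 52.3 TPM in PC3 control libraries (log2 change -0.08, 95% interval -0.38 to 0.22).

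The 8 enzymes between lanosterol and cholesterol hold 4 of the 9 PC3 rises. Of the 8, 4 rose and 0 fell, against 7.67% and 9.33% of all genes tested. In 7 both PC3 TRIB1 libraries were above both PC3 control libraries, against 24.5% of all genes tested. SC5D (ENSG00000109929, chromosome 11, 121292453 to 121308694), the desaturase of the late sterol rings, stood at 51.6 and 54.4 TPM in PC3 TRIB1 libraries, against 26.3 and 29 TPM in PC3 control libraries (mean ratio 1.92, log2 change 0.92, SE 0.09, limma adjusted p = 0.00381). MSMO1 (ENSG00000052802, chromosome 4, 165327623 to 165343160), the oxidase that starts removal of the methyl groups, stood at 23.4 and 22.2 TPM in PC3 TRIB1 libraries, against 13.6 and 10.9 TPM in PC3 control libraries (mean ratio 1.86, log2 change 0.85, SE 0.12, limma adjusted p = 0.00886). The SC5D call held in all 16 alternatives, and the MSMO1 call ended without either PC3 TRIB1 library (adjusted p up to 0.0596). DHCR7, the reductase of the last step to cholesterol, stood at 182 and 165 TPM in PC3 TRIB1 libraries, against 107 and 121 TPM in PC3 control libraries (log2 change 0.60, SE 0.11, limma adjusted p = 0.02). CYP51A1, the lanosterol demethylase, stood at 36.6 and 37.7 TPM in PC3 TRIB1 libraries, against 28.4 and 27.2 TPM in PC3 control libraries (log2 change 0.41, SE 0.07, limma adjusted p = 0.016). DHCR7 lost its call without any 1 of the 2 DU145 control, 2 PC3 control and 2 PC3 TRIB1 libraries, and CYP51A1 without either PC3 TRIB1 library and with the PC3 libraries alone (adjusted p up to 0.115 and 0.0755). DHCR7 overlaps the antisense gene AP002387.1 by 3484 bases, which stood at 12.4 and 11.3 TPM in PC3 TRIB1 libraries, against 8.36 and 12.1 TPM in PC3 control libraries. In the annotation used here CYP51A1 overlaps the gene AC000120.2 on the same strand by 22645 bases, and the part of shared reads was not tested.

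The other 4 of these enzymes did not pass in PC3. EBP, a sterol isomerase, stood at 179 and 180 TPM in PC3 TRIB1 libraries, against 147 and 136 TPM in PC3 control libraries (log2 change 0.35, limma adjusted p = 0.173). It passed with protein-coding genes alone and without either DU145 TRIB1 library. NSDHL, a dehydrogenase of methyl removal, had 30.7 and 26.8 TPM in PC3 TRIB1 libraries, against 25.4 and 24.4 TPM in PC3 control libraries. HSD17B7, the ketoreductase of the same steps, had 16.1 and 17.3 TPM in PC3 TRIB1 libraries, against 14.4 and 14.3 TPM in PC3 control libraries. All 3 were higher in both PC3 TRIB1 libraries than in both PC3 control libraries. TM7SF2, a sterol reductase, overlapped between the groups, with 24.2 and 27 TPM in PC3 TRIB1 libraries and 23.3 and 28.6 TPM in PC3 control libraries. The summed level of the 8 genes was 544 and 530 TPM in PC3 TRIB1 libraries, against 385 and 391 TPM in PC3 control libraries.

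None of the 5 genes of the sterol sensor passed in PC3 (limma), nor did any reach an unadjusted p below 0.05. SREBF2, which encodes the SREBP that mainly drives cholesterol genes, stood at 28.5 and 27.3 TPM in PC3 TRIB1 libraries, against 23.6 and 26.8 TPM in PC3 control libraries (log2 change 0.15, 95% interval -0.05 to 0.34). SREBF1, whose products also drive fatty acid genes, stood at 49.9 and 48.3 TPM in PC3 TRIB1 libraries, against 49.6 and 63.2 TPM in PC3 control libraries (log2 change -0.19, interval -0.61 to 0.23). Among the PC3 libraries the second control was the highest for SREBF1 and also for SCAP, the escort of SREBP. SCAP had 63.7 and 68.5 TPM in PC3 TRIB1 libraries and 61 and 79.1 TPM in PC3 control libraries. INSIG1, a retention factor and itself a known SREBP target, stood at 16.2 and 14 TPM in PC3 TRIB1 libraries, against 11.5 and 14.6 TPM in PC3 control libraries (log2 change 0.20, interval -0.18 to 0.58). The groups overlapped for INSIG1, SCAP and SREBF1. INSIG2, the second retention factor, had 23.4 and 30.1 TPM in PC3 TRIB1 libraries, against 35 and 30.6 TPM in PC3 control libraries (log2 change -0.29, interval -0.63 to 0.05).

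Of the 3 transport genes STARD4 rose in PC3 and the other 2 did not pass. STARD4 (ENSG00000164211, chromosome 5, 111496033 to 111512590), a soluble carrier of sterol between membranes, stood at 10.7 and 8.86 TPM in PC3 TRIB1 libraries, against 3.46 and 3.1 TPM in PC3 control libraries. This was the highest mean ratio of the 27 members, 2.99 (log2 change 1.33, SE 0.13, limma adjusted p = 0.00333), and the call held in all 16 alternatives. The antisense gene STARD4-AS1, which overlaps STARD4 by 365 bases, stood at 3.06 and 3.65 TPM in PC3 TRIB1 libraries, against 6.91 and 6.46 TPM in PC3 control libraries. Its level thus ran opposite to that of STARD4, and without a stated strand setting reads in the shared bases cannot be told apart. NPC1, the lysosomal exporter of cholesterol, stood at 57.1 and 50.4 TPM in PC3 TRIB1 libraries, against 72.3 and 65.6 TPM in PC3 control libraries (log2 change -0.35, limma adjusted p = 0.0738), and passed as lower with protein-coding genes alone. NPC1 overlaps RMC1 on the opposite strand by 25624 bases. ABCA1, the pump that passes cholesterol to apolipoproteins, was near the filter, with 1.4 and 1.22 TPM in PC3 TRIB1 libraries and 1.38 and 1.31 TPM in PC3 control libraries.

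**Figure D2:**
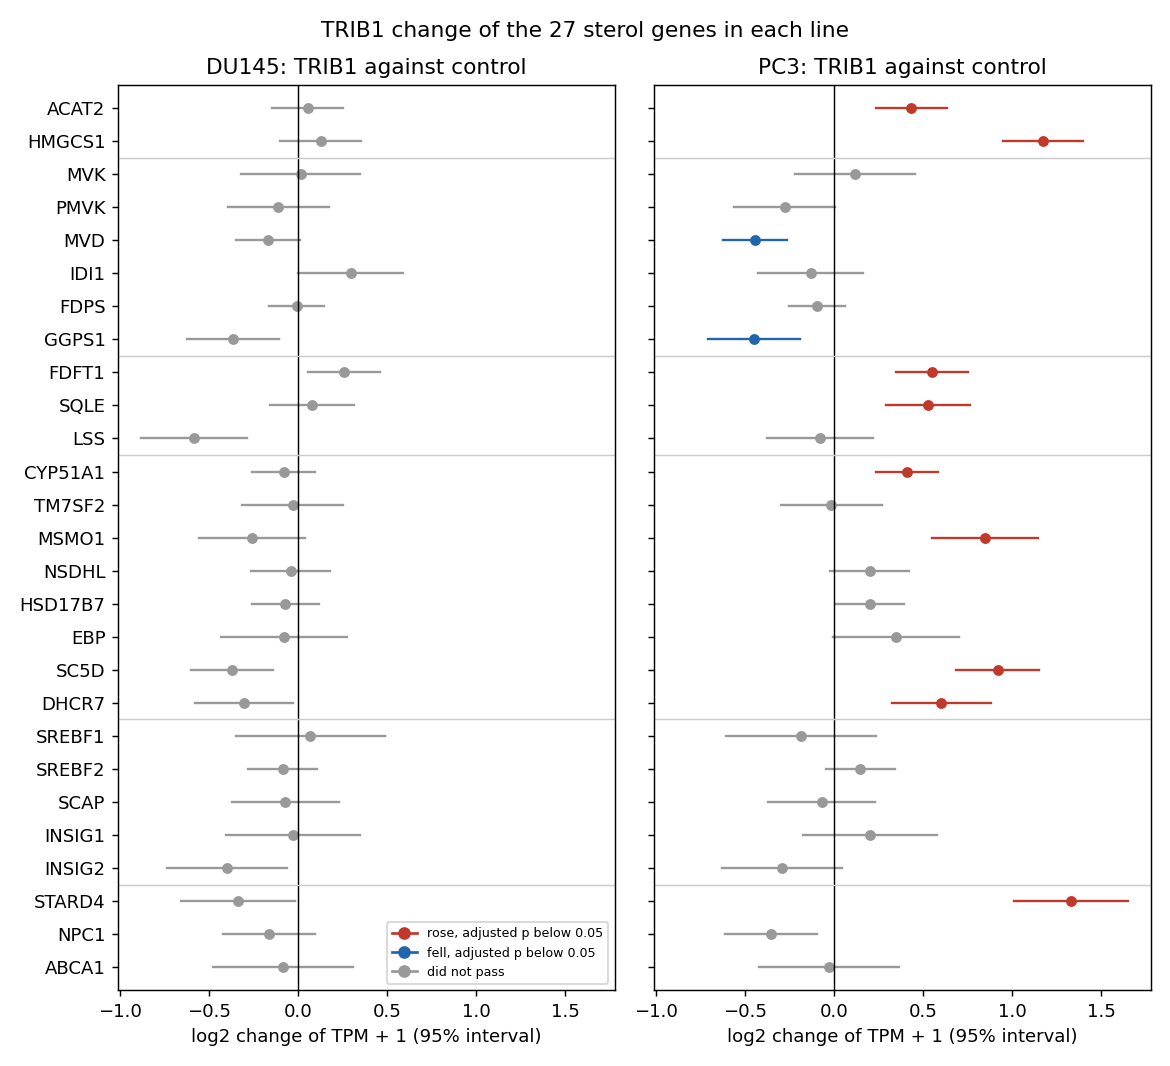
Log2 change of TPM + 1 under TRIB1 for the 27 genes, with its 95% interval from limma, in DU145 (left) and PC3 (right); red rose and blue fell at an adjusted p below 0.05, and grey did not pass. All DU145 points are grey and lie between -0.59 and 0.29, whereas 9 PC3 points are red and reach 1.33 in STARD4.

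In DU145, 0 of the 27 members rose or fell by limma, where 0.712% of all genes tested rose and 2.01% fell (185 and 522 genes, or 238 and 347 after median-of-ratios scaling). With a log2 change over 1 there were again 0 members in either direction, against 0.312% higher and 0.804% lower of all genes tested. At an unadjusted p below 0.05 there were 7, 1 higher (FDFT1) and 6 lower (GGPS1, LSS, SC5D, DHCR7, INSIG2 and STARD4), against 17.7% of all genes tested. The 27 log2 changes ran from -0.59 to 0.29 with a median of -0.08, and the median of all genes tested was -0.04. LSS had the smallest p, with 44.1 and 42.2 TPM in DU145 TRIB1 libraries, against 70.1 and 60.7 TPM in DU145 control libraries (log2 change -0.59, SE 0.12, limma adjusted p = 0.0749), and it passed with protein-coding genes alone (adjusted p = 0.0232).

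The genes that rose in PC3 did not pass in DU145, and their log2 changes there lay on both sides of 0. HMGCS1 had 49.1 and 42.5 TPM in DU145 TRIB1 libraries, against 41.8 TPM in both DU145 control libraries (log2 change 0.13, 95% interval -0.10 to 0.35). FDFT1 had 107 and 96.4 TPM in DU145 TRIB1 libraries, against 83.1 and 86.9 TPM in DU145 control libraries (log2 change 0.26, limma adjusted p = 0.188). These were the entry and squalene genes with both DU145 TRIB1 libraries above both DU145 control libraries. ACAT2 and SQLE overlapped between the DU145 groups (log2 change 0.05 and 0.08). SC5D, DHCR7, MSMO1 and STARD4 were lower in both DU145 TRIB1 libraries than in both DU145 control libraries, and CYP51A1 overlapped. SC5D had 18.8 and 21.6 TPM in DU145 TRIB1 libraries, against 26.9 and 25.8 TPM in DU145 control libraries (log2 change -0.37, limma adjusted p = 0.117). DHCR7 had 120 and 146 TPM in DU145 TRIB1 libraries, against 163 and 164 TPM in DU145 control libraries (log2 change -0.31, limma adjusted p = 0.241). STARD4 had 8.88 and 9.18 TPM in DU145 TRIB1 libraries, against 12.4 and 11 TPM in DU145 control libraries (log2 change -0.34, limma adjusted p = 0.258). All 8 enzymes after lanosterol had a log2 change below 0 in DU145, from -0.37 to -0.03. The median of all genes tested was -0.04. Both DU145 TRIB1 libraries were below both DU145 control libraries for 4 of the 8, against 29.7% of all genes tested. Median-of-ratios scaling moved the median of the 27 members from -0.08 to -0.005. The signs of the smaller of these 8 changes thus depend on the scale, among them TM7SF2 (-0.03) and NSDHL (-0.04). The changes of HSD17B7 (-0.07), EBP (-0.08) and CYP51A1 (-0.08) are close in size to that move. The summed level of the 8 was 355 and 353 TPM in DU145 TRIB1 libraries, against 400 and 403 TPM in DU145 control libraries.

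Of the remaining members in DU145, IDI1 was higher in both TRIB1 libraries, with 57.7 and 59.1 TPM in DU145 TRIB1 libraries and 43.8 and 51.3 TPM in DU145 control libraries. GGPS1 was lower in both, with 20.1 and 18.3 TPM in DU145 TRIB1 libraries and 25.5 and 24.6 TPM in DU145 control libraries. INSIG2 was lower in both as well, at 16.7 and 18.6 TPM in DU145 TRIB1 libraries, against 23.7 and 23.4 TPM in DU145 control libraries. SREBF2 stood at 62.9 and 65.1 TPM in DU145 TRIB1 libraries, against 66.8 and 69.3 TPM in DU145 control libraries. INSIG1, at 24.6 and 30.2 TPM in DU145 TRIB1 libraries and 28.6 and 27.1 TPM in DU145 control libraries, overlapped between the groups. As a ratio, EBP differed most between libraries of a group, with 102 TPM in the first and 73.8 TPM in the second DU145 TRIB1 library, on either side of the 92.8 and 90.6 TPM of DU145 control libraries. In all, 3 members were higher and 12 lower in both DU145 TRIB1 libraries than in both DU145 control libraries, against 17.6% and 29.7% of all genes tested.

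The TRIB1 change differed between the lines for 6 of the 27 members, each with the lower change in DU145. This was tested as the difference of the changes in the same limma fit. All 6 had risen in PC3, a direction that this difference shares by construction, since it uses the same PC3 libraries. Over all genes tested the change was lower in DU145 for 5.36% and higher for 4.01%, while 0 members were higher. In 4 members the difference was below -1 on the log2 scale and in 0 above 1, against 3.01% and 2.11% of all genes tested. At an unadjusted p below 0.05 there were 13 members, 11 lower and 2 higher (MVD and IDI1), against 25.9% of all genes tested in either direction. STARD4 had a log2 change of -0.34 in DU145 and 1.33 in PC3, a difference of -1.67 (SE 0.18, limma adjusted p = 0.00824). For SC5D the changes were -0.37 and 0.92, a difference of -1.29 (SE 0.13, limma adjusted p = 0.00715). MSMO1 followed with -0.26 in DU145 and 0.85 in PC3, a difference of -1.11 (SE 0.17, limma adjusted p = 0.0187). In HMGCS1 the change was above 0 in both lines, 0.13 in DU145 and 1.17 in PC3, a difference of -1.05 (SE 0.13, limma adjusted p = 0.0109).

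The other 2 were DHCR7, with a difference of -0.91 (SE 0.16, limma adjusted p = 0.0259), and CYP51A1, with -0.49 (SE 0.10, limma adjusted p = 0.0383). Of the PC3 rises, those of ACAT2, FDFT1 and SQLE were not shown to differ from DU145 in the fit over all genes tested. Their differences were -0.38 (95% interval -0.66 to -0.10, limma adjusted p = 0.102), -0.29 (-0.58 to -0.01, adjusted p = 0.184) and -0.45 (-0.78 to -0.12, adjusted p = 0.1). SQLE passed with protein-coding genes alone and ACAT2 without the first PC3 control library (adjusted p = 0.0478 and 0.049 by limma). SREBF1 and SREBF2 did not pass either (0.25, adjusted p = 0.553, and -0.23, adjusted p = 0.255). With a block on replicate number, HMGCS1, SC5D and STARD4 lost the call (limma adjusted p = 0.0687, 0.0646 and 0.0646). With 1 DU145 control or 1 PC3 TRIB1 library left out, fewer members differed. The count over all genes tested also moved with the library left out. HMGCS1, SC5D and STARD4 passed with any 1 library left out. DHCR7 and MSMO1 lost the call in 5 and CYP51A1 in 7 of the 8 such fits (adjusted p over all alternatives up to 0.0968, 0.0698 and 0.133).

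**Figure D3:**
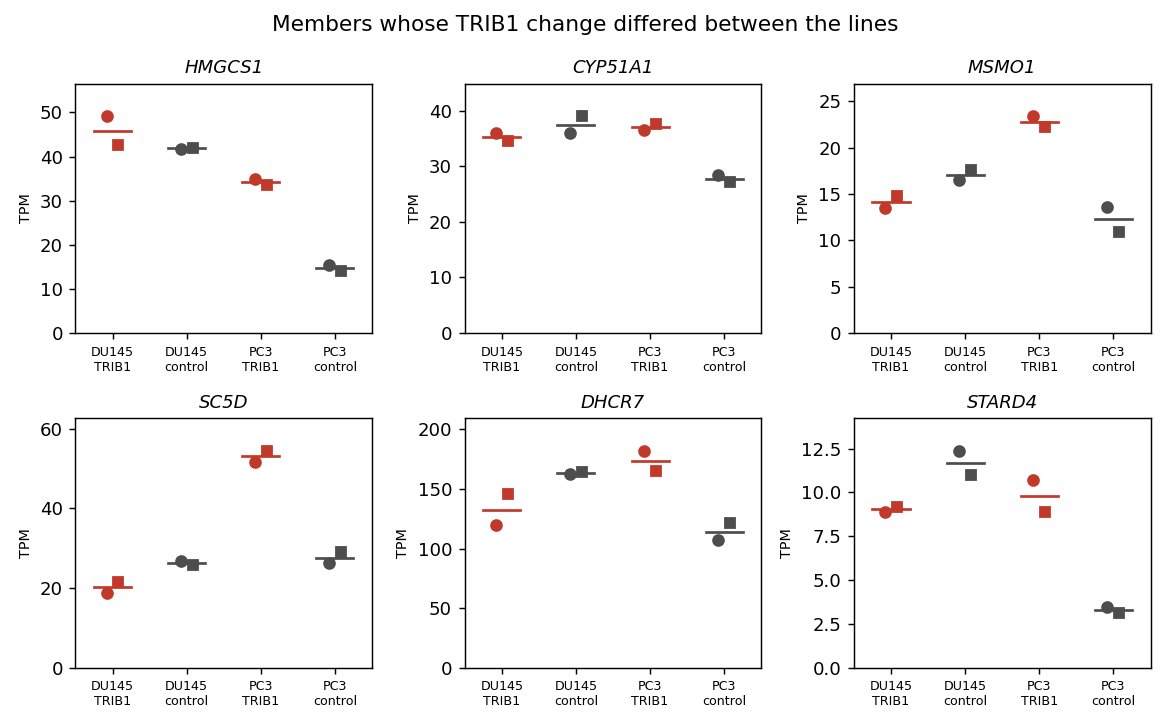
TPM of the 6 genes whose TRIB1 change differed between the lines, by group, with 1 point per library (circle first, square second), a bar at the mean of 2, red for TRIB1 and grey for control; each axis starts at 0. PC3 TRIB1 libraries lie above PC3 control libraries in all 6 panels, and in SC5D they reach 51.6 and 54.4 TPM while the other 6 libraries lie between 18.8 and 29 TPM.

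The control lines themselves differed in most of these genes. In PC3 control cells 17 of the 27 members were lower and 4 higher than in DU145 control cells by limma, where 28.4% of all genes tested were lower and 18.6% higher. A difference below -1 on the log2 scale was found for 7 members and one above 1 for 0, against 15.7% and 9.78% of all genes tested. Both PC3 control libraries were above both DU145 control libraries for 6 members and below them for 19, against 28.2% and 42.4% of all genes tested. The median log2 difference of the members was -0.45, and that of all genes tested -0.18. With median-of-ratios scaling, which brings the median of all genes to 0, 9 members were lower and 6 higher, and over all genes 5683 were lower and 6175 higher, against 7376 and 4840 on the deposited scale. The 9 were ACAT2, HMGCS1, IDI1, FDPS, GGPS1, FDFT1, SREBF2, INSIG1 and STARD4. This comparison shares the control libraries with the TRIB1 comparisons above, so its direction cannot be read as separate evidence beside them.

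FDFT1 differed most, with 24.5 and 23.1 TPM in PC3 control libraries, against 83.1 and 86.9 TPM in DU145 control libraries (log2 difference -1.80, SE 0.08, limma adjusted p = 3.04e-05). IDI1 stood at 15.7 and 13.6 TPM in PC3 control libraries, against 43.8 and 51.3 TPM in DU145 control libraries (log2 difference -1.63, SE 0.12, limma adjusted p = 0.000159). The entry enzymes HMGCS1 and ACAT2 were lower in PC3 control by -1.45 and -1.17 on the log2 scale. FDPS stood at 167 and 175 TPM in PC3 control libraries, against 321 TPM in both DU145 control libraries (log2 difference -0.91, SE 0.06). Of the sensor genes, SREBF2 stood at 23.6 and 26.8 TPM in PC3 control libraries, against 66.8 and 69.3 TPM in DU145 control libraries (log2 difference -1.40, SE 0.08, limma adjusted p = 5.97e-05). INSIG1 stood at 11.5 and 14.6 TPM in PC3 control libraries, against 28.6 and 27.1 TPM in DU145 control libraries (log2 difference -1.04, SE 0.15, limma adjusted p = 0.00242). SREBF1, by contrast, overlapped between the lines, with 49.6 and 63.2 TPM in PC3 control libraries and 66.1 and 48.4 TPM in DU145 control libraries.

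The 4 members higher in PC3 control were MVK, NSDHL, EBP and INSIG2, with log2 differences of 0.63, 0.64, 0.62 and 0.46 (limma adjusted p = 0.0119, 0.00206, 0.0155 and 0.0377). The NSDHL call held in all 16 alternatives, while INSIG2 lost its call in 9, EBP in 4 and MVK in 2. EBP stood at 147 and 136 TPM in PC3 control libraries, against 92.8 and 90.6 TPM in DU145 control libraries. EBP and MVK lost their calls only in fits with a control library left out. Over the alternatives the log2 difference ran from 0.48 to 0.84 for MVK and from 0.56 to 0.84 for EBP. It ran from 0.60 to 0.86 for NSDHL and from 0.36 to 0.68 for INSIG2. STARD4 was lower in PC3 control, with 3.46 and 3.1 TPM, against 12.4 and 11 TPM in DU145 control (log2 difference -1.57, SE 0.13, limma adjusted p = 0.000251). SC5D did not pass, at 26.3 and 29 TPM in PC3 control libraries and 26.9 and 25.8 TPM in DU145 control libraries (log2 difference 0.06, 95% interval -0.17 to 0.30). The smaller differences of SQLE, LSS, MSMO1, CYP51A1, DHCR7, MVD, HSD17B7 and NPC1, from -0.52 to -0.32, did not pass after median-of-ratios scaling.

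**Figure D4:**
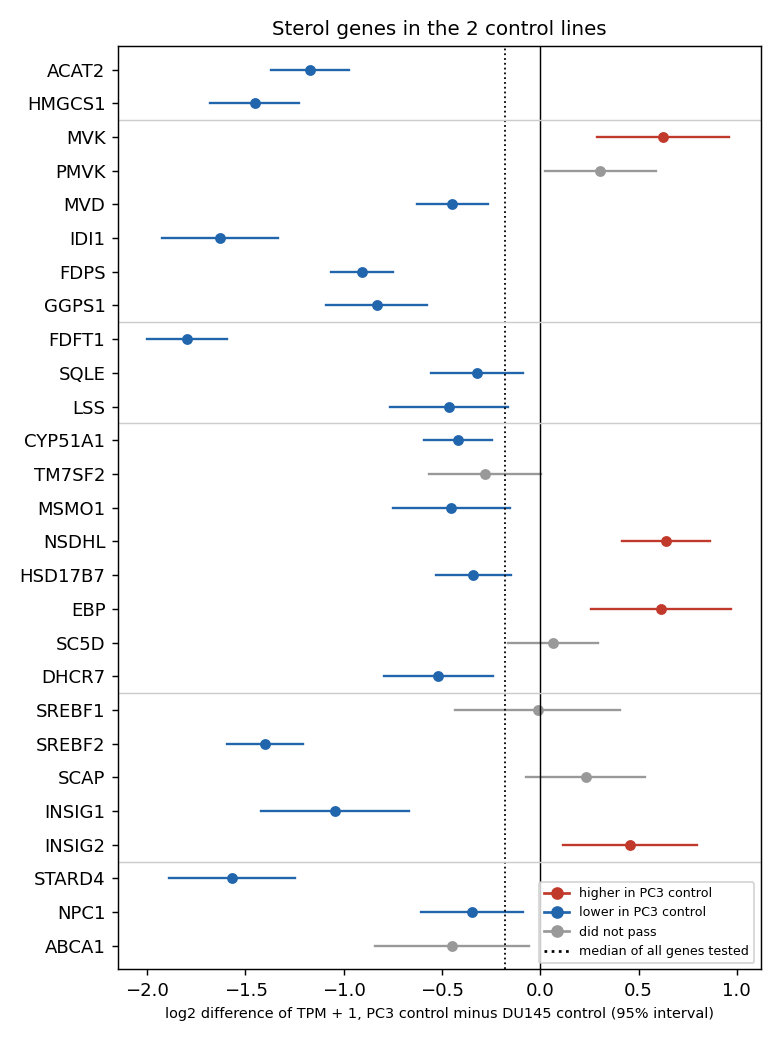
Log2 difference of TPM + 1, PC3 control minus DU145 control, for the 27 genes with its 95% interval from limma; blue is lower and red higher in PC3 control (limma adjusted p below 0.05), grey did not pass, and the dotted line is the median of all genes tested (-0.18). FDFT1 lies lowest, at -1.80, and NSDHL highest, at 0.64.

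Companion genes of sterol and isoprenoid metabolism changed in either direction in PC3. Among all genes tested 7.67% rose and 9.33% fell in PC3, and 0.712% rose and 2.01% fell in DU145. The alternatives were run for the members, and the calls of single companion genes were not recomputed in them. Of 4 further genes of the synthesis path 1 rose and 1 fell in PC3 and 0 passed in DU145. The riser was ERG28, listed as C14orf1, a scaffold of the methyl-removing enzymes, at 27.8 and 27.4 TPM in PC3 TRIB1 libraries, against 18.7 and 18.2 TPM in PC3 control libraries (log2 change 0.56, SE 0.07, limma adjusted p = 0.00568). Of 13 genes of SREBP processing and sterol-dependent degradation 1 rose and 3 fell in PC3, and 0 rose and 2 fell in DU145. UBE2G2, a ubiquitin-conjugating enzyme of endoplasmic reticulum degradation, fell in both lines, by 0.50 on the log2 scale in PC3 and by 0.49 in DU145 (limma adjusted p = 0.00715 and 0.0275). MBTPS1, the first protease that cuts SREBP, stood at 45.4 and 39.6 TPM in PC3 TRIB1 libraries, against 59.6 and 63.3 TPM in PC3 control libraries (log2 change -0.52, limma adjusted p = 0.0125). RNF145, a sterol-responsive ubiquitin ligase, fell by 0.39 in PC3 (limma adjusted p = 0.0303), and MBTPS2, the second SREBP protease, fell by 0.56 in DU145 (limma adjusted p = 0.0448). PAQR3, a Golgi anchor of SCAP named after its value was seen, rose by a log2 of 0.57 in PC3 (limma adjusted p = 0.0353).

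Of 16 genes of sterol uptake, storage and export 3 rose and 2 fell in PC3, and 0 passed in DU145. NPC2, the lysosomal partner of NPC1, stood at 171 and 159 TPM in PC3 TRIB1 libraries, against 97.2 and 94.4 TPM in PC3 control libraries (log2 change 0.78, SE 0.06, limma adjusted p = 0.00205). OSBP, an exchanger of sterol at membrane contacts, rose by a log2 of 0.41, while GRAMD1B, a transporter of sterol from the plasma membrane, fell by 0.50 (limma adjusted p = 0.0103 and 0.0199). SOAT1, which esterifies cholesterol for storage, fell by 0.56 (limma adjusted p = 0.0276) and was named after its value was seen. Among 11 fatty acid genes known as SREBP-1 targets 1 rose and 1 fell in PC3 and 0 passed in DU145. These were SCD, a fatty acid desaturase, with a log2 change of 0.44, and FADS2, a desaturase of polyunsaturated fatty acids, with -0.61 (limma adjusted p = 0.0167 and 0.0122). Of 12 genes of other isoprenoid branches 2 rose and 0 fell in PC3, PDSS2 of ubiquinone synthesis with a log2 change of 0.82 and DHDDS of dolichol synthesis with 0.28 (limma adjusted p = 0.0102 and 0.0394), and 0 passed in DU145. At an unadjusted p below 0.05 the 5 companion lists held, in that order, 3, 6, 9, 4 and 5 genes in PC3, against 30.6% of all genes tested, and 1, 3, 7, 1 and 4 genes in DU145, against 17.7%.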

How the data were processed

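RNA sequencing values of 8 libraries were taken from 1 table in which the authors deposited TPM per gene, and each column sums to 1000000. The build hg38 and the tools HTSeq, edgeR, DESeq and TopHat2 (2.0.14) are listed in the submitters' processing notes. The sources used here do not give the tool that made the TPM, the gene lengths, the annotation or the strand setting. Of 52338 gene identifiers shared with GENCODE 29, 365 have the same start, so positions are given from GENCODE 29 on GRCh38 by identifier. Promoter sequences are from RefSeq (GRCh38.p14).

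The 25982 genes whose mean reached 1 TPM in 1 or more groups were tested. In R 4.3.3, limma 3.58.1 with a trend of variance on mean was fitted to log2(TPM + 1) over all 8 libraries and 4 group means (4 residual and 1.89 prior degrees of freedom), with Benjamini-Hochberg adjustment over all genes tested. Log2 changes on this scale understate those of low genes. The TPM carry no depth, so there are no counting intervals. The procedure was tested on simulated data.

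The 27 genes are all named, with TRIB1 and up to 3 genes with the smallest p that passed in each companion list. Members and lists were chosen with earlier results of these data known. Some genes of these lists are not reported here. Values may be shared with overlapping genes and with pseudogenes of FDPS, HSD17B7 and CYP51A1. Alternatives were another pseudocount, no filter, 3 scalings, no trend, single lines, a replicate block and each library left out.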

Additional observations from a re-analysis of the deposited data

Results flagged for a closer look

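For 6 of the 27 genes the change under TRIB1 differed between the lines by a test of the difference itself (limma adjusted p below 0.05). Taken as DU145 minus PC3, the difference of the log2 changes was -1.67 for STARD4, -1.29 for SC5D, -1.11 for MSMO1, -1.05 for HMGCS1, -0.91 for DHCR7 and -0.49 for CYP51A1. In each of the 6, both PC3 TRIB1 libraries were above both PC3 control libraries. In DU145, STARD4, SC5D, MSMO1 and DHCR7 were lower in both TRIB1 libraries than in both control libraries, HMGCS1 was higher in both, and CYP51A1 overlapped.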

How the results depend on the processing

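There were 38 single results that passed (9 rises and 2 falls in PC3, 6 differences between the lines and 21 differences between the controls). Each was recomputed in 15 or 16 settings, which gave 602 pairs of a result and a setting. In 478 of these pairs the result passed in the same direction, in 124 it no longer passed, and in 0 the sign turned. Of the 38 results 13 passed in every setting. The cause was not tested. The count of 9 members higher in PC3 was 4 with the replicate block and 3 to 10 with 1 library left out. The count of 2 lower was 1 with no filter, with upper-quartile scaling, with the replicate block, without the variance trend and with PC3 libraries alone, and 0 to 1 with 1 library left out. The 6 members with a lower change in DU145 became 0 with the replicate block, HMGCS1, SC5D and STARD4 among those lost (limma adjusted p = 0.0687, 0.0646 and 0.0646), and 3 to 6 with 1 library left out. With protein-coding genes alone 1 member (LSS) was lower in DU145. Of the controls, 17 members lower became 9 after median-of-ratios scaling and 12 to 18 with 1 library left out, and 4 higher became 1 to 4. Replicate numbers did not pair the libraries: the correlation of the replicate differences between TRIB1 and control was -0.04 in DU145 and -0.01 in PC3. Over all genes tested, the 185 higher and 522 lower in DU145 were 238 and 347 after median-of-ratios scaling, 1 and 10 with the replicate block, 9 and 43 with DU145 libraries alone, and 471 and 892 with protein-coding genes alone. In PC3 the 1992 higher and 2423 lower were 784 and 951 with the block and 1018 and 1138 with PC3 libraries alone. For the difference between the lines the 1041 higher and 1393 lower were 19 and 55 with the block, and 1786 were higher with protein-coding genes alone. Upper-quartile scaling left 317 lower in DU145. With 1 library left out the counts ran from 69 to 432 higher and 184 to 513 lower in DU145, from 1046 to 1800 and 905 to 2417 in PC3, and from 414 to 1446 and 861 to 1470 for the difference. What depth limits cannot be given from TPM.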
